A study of Mus musculus with 8 samples.

Results

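The ligand Reln, its receptors Vldlr and Lrp8, the adaptor Dab1 and the kinase Fyn were followed through 3 lists of open chromatin from granule neuron progenitors (GNPs) of the mouse cerebellum. The members were the peaks that lay in the body of one of these 5 genes or within 20 kb on either side of it, in GENCODE coordinates of the mm10 genome. The WT list held 198 such peaks of 152984, the het list 146 of 106974, and the mutant list 227 of 174407. Peaks of any list that lay within 300 bp of each other were joined, which gave 226 regions at the 5 genes of 190582 in all.

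ATAC-seq, in which the Tn5 transposase cuts open DNA and tags it for sequencing, had been run on GNPs purified over Percoll at postnatal day 7 of the mouse. The study's methods give the WT animals as Chd7 f/f, the het animals as Atoh1-Cre::Chd7 f/+ and the mutant animals as Atoh1-Cre::Chd7 f/f, with 3 WT, 2 het and 3 mutant libraries. All were on a C57BL/6 background, given as C57BL/6N in the methods and written C56Bl6/J in the labels. Chd7 encodes a chromatin remodelling ATPase. Atoh1-Cre recombines in the granule lineage and not in Purkinje cells, probably with less efficiency in the posterior lobe as the study describes it, and the WT and mutant libraries were described as technical replicates. Each list was called on the pooled libraries of 1 genotype, so no value had a replicate error and no test between genotypes could be made. The counting intervals of height ratios below cover the counting error of tags only. The intervals of shares and of medians treat the peaks or regions of a gene as independent draws, which they are not, and are descriptions only.

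Reelin is a large glycoprotein that granule cells secrete and that Purkinje cells read to find their layer. It binds Vldlr and Lrp8 (also called ApoER2) on the receiving cell, which brings kinases of the Src family, Fyn among them, to phosphorylate Dab1 on the cytoplasmic tails of the receptors. Loss of Reln in the reeler mouse, of Dab1, or of both receptors together leaves Purkinje cells in deep clusters under a small cerebellum. Granule cells are thus the source of the signal, and a peak at a receptor or adaptor gene in GNPs is not a measure of the gene in Purkinje cells. The question put to the data was where the open regions of Reln lie, which of them differ in height between WT and mutant GNPs, and how they compare with the regions of the genes that receive the signal.

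After duplicates were removed the WT list rested on 50394313 tags, het on 30923002 and mutant on 51030229; heights scaled to these totals, per 10000000 tags, are called scaled heights. Of 9 start sites of GNP marker genes, 8 had a WT peak within 1 kb, 8 a het peak and 9 a mutant peak. Of 21 marker start sites of Purkinje cells, interneurons, glia, microglia and endothelium, 15 had a WT peak, 13 a het peak and 14 a mutant peak, with summed scaled heights of 107 for WT and 110.1 for mutant, so that an open start site did not by itself identify a cell type. Of the Purkinje cell markers 4 of 5 had a peak in each list, among them Calb1, with a pileup of 45 tags for WT and 46 for mutant, and Foxp2, with 82 and 85, while Pcp2 had none. Of the markers of Bergmann glia and astrocytes 3 of 4 had a peak in each list (Gfap had none), and of the oligodendrocyte markers 2 of 3 (Sox10 had none). The part of other cells in the values below was not tested. The promoter of Chd7 itself was open in every list, with a pileup of 40 tags for WT, 63 for het and 52 for mutant, and does not check the deletion. The link of the WT and mutant lists to their genotypes rests on their names, since their headers name no genotype.

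Height is given as the pileup, the number of extended tags stacked at the summit of a region. For ratios the scaled height was used. The WT and mutant lists were made with tags extended to 90 and 88 bp, and their heights were compared directly. Before extension the reads behind them differed in length, with 107 bp recorded for the WT list against 76 bp for mutant. This difference runs along with genotype in every comparison of WT and mutant below, and its effect was not tested. The het list was made with tags extended to 200 bp, which stacks more tags at every summit. Its scaled heights had a median of 2.04 times those of WT over 90186 regions, so het pileups are printed as values and not compared in height. Over all 111314 regions with a WT and a mutant peak the mutant height was a median of 0.07 higher on the log2 scale, and the ratios of the members are to be read against that shift.

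The sequences of the Reln regions on which the results turn are given first. Reln lies on the minus strand of chromosome 5 (chr5:21884454-22344702, ENSMUSG00000042453.14), spans 460 kb and has 65 exons in its principal transcript. The promoter is printed on the strand of the gene, from RefSeq (GRCm38.p6), and the other windows are 300 bases of the plus strand of the same build centred on the summit. Capitals mark matches, on either strand, to the motifs searched: the E-boxes CAGCTG and CAGATG, a half-site of the NFI factors (TTGGCA), Sox (ACAATGG), Zic (CAGCAGG), Gli (GACCACCCA), AP-1 (TGANTCA), CRE (TGACGTCA) and the CTCF core. CATCTG is CAGATG read on the other strand, and the motifs do not overlap in these windows.
Reln promoter, chr5:22344656-22344955, the start of the gene: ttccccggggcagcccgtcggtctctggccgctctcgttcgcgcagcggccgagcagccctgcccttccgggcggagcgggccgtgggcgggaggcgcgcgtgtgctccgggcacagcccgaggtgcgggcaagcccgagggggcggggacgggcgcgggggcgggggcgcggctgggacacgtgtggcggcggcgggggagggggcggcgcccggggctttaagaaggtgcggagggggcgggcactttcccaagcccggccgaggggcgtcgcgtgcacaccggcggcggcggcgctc
Reln intron 10, chr5:22093148-22093447, the tallest region in WT: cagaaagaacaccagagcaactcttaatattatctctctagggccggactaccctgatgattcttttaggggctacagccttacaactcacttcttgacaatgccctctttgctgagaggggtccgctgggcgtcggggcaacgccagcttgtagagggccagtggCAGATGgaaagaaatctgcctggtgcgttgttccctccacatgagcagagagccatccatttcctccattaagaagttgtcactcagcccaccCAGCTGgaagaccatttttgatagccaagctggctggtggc
Reln intron 8, chr5:22119340-22119639, lower in mutant: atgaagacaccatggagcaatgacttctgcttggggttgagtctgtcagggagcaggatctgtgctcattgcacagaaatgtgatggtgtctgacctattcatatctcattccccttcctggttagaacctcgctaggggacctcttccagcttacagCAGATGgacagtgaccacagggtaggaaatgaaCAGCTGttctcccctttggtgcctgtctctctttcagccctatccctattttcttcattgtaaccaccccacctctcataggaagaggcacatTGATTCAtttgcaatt
Reln intron 1, chr5:22313055-22313354, lower in mutant: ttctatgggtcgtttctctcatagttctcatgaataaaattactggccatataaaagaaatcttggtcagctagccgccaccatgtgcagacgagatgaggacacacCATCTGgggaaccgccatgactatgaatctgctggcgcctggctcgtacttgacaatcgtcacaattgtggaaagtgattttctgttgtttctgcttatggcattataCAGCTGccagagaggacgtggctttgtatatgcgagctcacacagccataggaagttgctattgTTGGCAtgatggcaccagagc
Reln intron 44, chr5:21948021-21948320, higher in mutant: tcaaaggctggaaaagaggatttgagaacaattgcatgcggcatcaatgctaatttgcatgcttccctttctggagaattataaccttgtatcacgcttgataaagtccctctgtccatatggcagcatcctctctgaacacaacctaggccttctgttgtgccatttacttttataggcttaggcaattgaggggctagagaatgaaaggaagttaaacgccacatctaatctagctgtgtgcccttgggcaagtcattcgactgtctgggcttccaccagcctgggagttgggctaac
Reln intron 2, chr5:22233831-22234130, WT list only: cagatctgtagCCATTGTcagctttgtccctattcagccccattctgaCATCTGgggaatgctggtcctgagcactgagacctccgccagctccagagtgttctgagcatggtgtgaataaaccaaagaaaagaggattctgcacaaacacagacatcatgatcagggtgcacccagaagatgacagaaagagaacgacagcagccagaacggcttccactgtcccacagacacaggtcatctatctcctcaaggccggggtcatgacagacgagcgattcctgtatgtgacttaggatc

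The promoter window was 80.7% G and C and held no match, while the intronic windows were 46.0% to 52.3% G and C. The tallest region and both regions that were lower in mutant each held a CAGATG and a CAGCTG E-box, and the region with the largest mutant to WT ratio held none of the motifs. Over the 55 Reln windows, CAGATG stood in 22 (40%), against 34.4% of the windows of all regions, CAGCTG in 17 (30.9%, against 28.1%) and the NFI half-site in 17 (30.9%, against 27.5%). Zic stood in 9 (16.4%, against 15.1%), AP-1 in 8 (14.5%, against 9.35%), Sox in 3 (5.45%, against 4.18%) and Gli in 2 (3.64%, against 0.391%), at exon 41 and intron 38, while CRE (0.580% of all) and the CTCF core (1.70% of all) stood in 0. Among the RefSeq promoters, 16.3% held CAGCTG and 17.2% held CAGATG. Both E-boxes together stood in 6 of the 22 Reln regions whose mutant height was below WT and in 0 of the 20 whose mutant height was above it, against 9.54% of all regions. Either E-box stood in 13 of the 22 (59.1%) and 12 of the 20 (60%), against 52.9% of all regions. CAGATG stood in 12 of the 22 and 5 of the 20, CAGCTG in 7 and 7, and the NFI half-site in 8 and 8. This split was chosen after the values were seen and has no test. A match of letters is not a site of binding.

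Reln held 55 regions, made of 55 WT, 39 het and 51 mutant peaks, and 35 of the regions had a peak in all 3 lists. Its WT peaks numbered 11.0 per 100 kb of the gene and its flanks, against 16.6 at Lrp8, 14.0 at Fyn, 7.38 at Dab1 and 6.43 at Vldlr. Of the 55, 47 had their summit in an intron, 5 in an exon and 1 at the promoter, and the remaining 2 lay beyond the 3′ end at the start of the neighbouring gene Slc26a5, a motor protein gene of hair cells. The long introns 1 and 2 held 9 and 10 regions. Regions were 100 to 1894 bp long. WT heights of the 42 regions shared by WT and mutant ran from 1.98 to 13.5 when scaled.

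**Figure D1:**
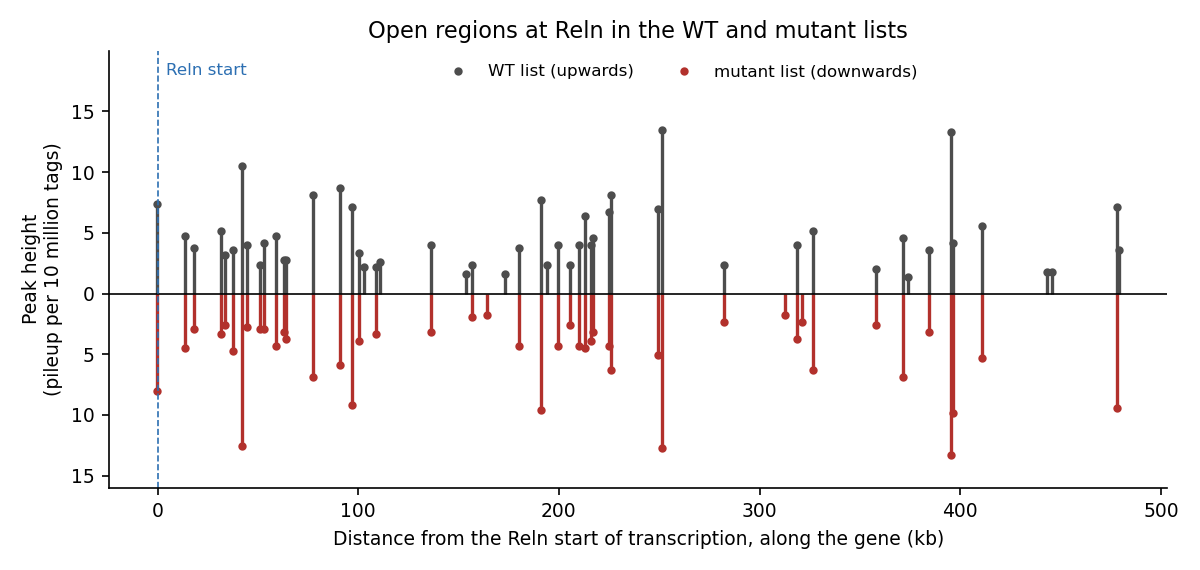
Scaled height of each Reln region (pileup per 10000000 tags) in the WT list, drawn upwards, and in the mutant list, drawn downwards, against distance in kb from the start of transcription along the gene. The regions at 251 and 395 kb are the tallest in both lists, and the promoter at 0 kb is lower than several intronic regions.

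The Reln promoter was open in all 3 genotypes and was not the tallest region of its gene. Its region (chr5:22343690-22345583) had a pileup of 37 tags in WT, 52 in het and 41 in mutant, a mutant to WT ratio of height of 1.09 (95% counting interval 0.684 to 1.76). It stood 8th in height among the 51 Reln regions with a WT peak. The tallest region lay in intron 10, 251 kb into the gene (chr5:22093029-22093859), with 68 tags in WT, 108 in het and 65 in mutant. Next came a region of intron 43 at 395 kb (chr5:21948746-21949747), with 67 tags in WT, 105 in het and 68 in mutant. A region of intron 1 at 42.1 kb (chr5:22302258-22303036) had 53 WT, 89 het and 64 mutant tags. The ratios of these 3 regions were 0.944, 1.0 and 1.19, and each interval held 1.

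Of the 42 shared Reln regions, 2 were lower in mutant by 1.5-fold or more and 3 were higher. Over all shared regions 3.61% were lower and 7.48% higher by that rule, and the counts at Reln lie near those shares. With heights scaled so that the median ratio of all shared regions is 1, 5 of the 42 were lower and 1 was higher. Over all shared regions the shares were then 5.10% and 5.48%, so the lower count lay above its share and the higher count below. With the fold enrichment of the peak caller in place of the pileup the split became 0 lower and 2 higher (1.92% and 5.66% of all shared regions). The 2 lower and 3 higher regions named first all had a −log10 q of at least 10 in WT or mutant. At that limit 3.85% of 66617 shared regions were lower and 8.64% higher. The q value is the peak caller's false discovery rate, so a larger −log10 q is a stronger peak.

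The region with the largest difference lay in intron 44, 397 kb into the gene and beside the tall intron 43 region (chr5:21947631-21948299). It had 21 tags in WT, 40 in het and 50 in mutant. Its height in mutant was 2.35 times that in WT (interval 1.39 to 4.12), and its −log10 q went from 4.95 in WT to 26.2 in mutant. Its neighbour, whose edge is under 1 kb away, had 67 and 68 tags. It was the only Reln region whose counting interval left out 1; over all shared regions the interval lay above 1 in 0.806% and below 1 in 0.515%.

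The other higher regions were smaller. In intron 36, at 371 kb (chr5:21973199-21973887), the pileup was 23 tags in WT, 43 in het and 35 in mutant, a ratio of 1.503 (interval 0.863 to 2.66). In intron 2, at 109 kb (chr5:22235507-22235774), it was 11 tags in WT, 13 in het and 17 in mutant, a ratio of 1.53 (interval 0.674 to 3.60). Both intervals held 1.

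The lower regions lay in introns 8 and 1. The intron 8 region, 225 kb into the gene (chr5:22119344-22119670), had 34 tags in WT, 47 in het and 22 in mutant, a ratio of 0.639 (interval 0.356 to 1.12). Its fold enrichment over the local background was 8.47 in WT and 7.23 in mutant. The intron 1 region at 31.5 kb (chr5:22313060-22313495) had 26 tags in WT, 26 in het and 17 in mutant, a ratio of 0.646 (interval 0.329 to 1.24), with fold enrichments of 9.17 and 6.76. Both intervals held 1.

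On the lower side several Reln regions stood just short of 1.5-fold. In intron 2 at 91.1 kb (chr5:22253268-22253801) the pileup was 44 tags in WT, 54 in het and 30 in mutant, a ratio of 0.673 (interval 0.409 to 1.10). The next 4 in order had ratios of 0.687 in intron 8, 0.691 and 0.705 in intron 1 and 0.710 in intron 7. On the higher side the first region short of 1.5-fold had a ratio of 1.34, in intron 2 at 64.1 kb.

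**Figure D2:**
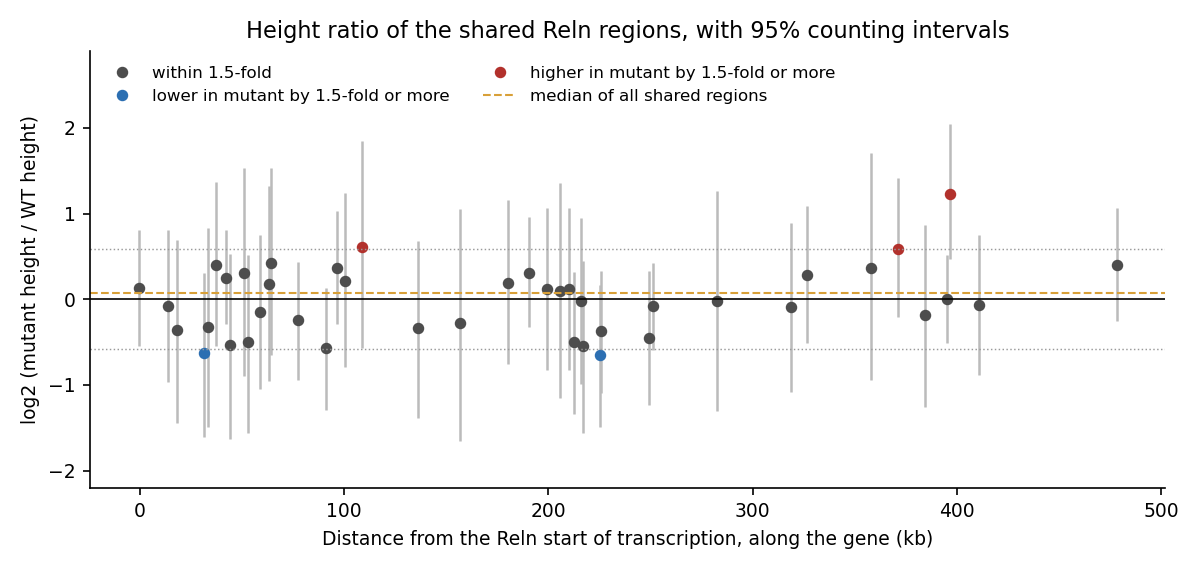
Log2 of the mutant to WT height ratio of the 42 shared Reln regions against distance in kb from the start of transcription, with 95% counting intervals as grey lines; blue and red points pass 1.5-fold (dotted lines), and the dashed line is the median of all shared regions. Of the 42 intervals, 41 cross 0, and the region at 397 kb lies above it.

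Over the whole gene the Reln ratios were centred near 1. Their median was −0.02 on the log2 scale (95% order-statistic interval −0.19 to 0.17), which includes the 0.07 of all shared regions. The mutant height was below WT in 22 of 42 regions (52.4%, Wilson interval 37.7% to 66.6%), against 42.8% of all shared regions. Among the 32 with a −log10 q of at least 10 it was below WT in 17 (53.1%, interval 36.5% to 69.1%), against 39.4%. Both Reln intervals hold the share of all regions.

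Counted by stretches of 100 kb, the regions below WT varied along the gene. In the first 100 kb the mutant height was below WT in 9 of 15 shared regions (median log2 ratio −0.14), from 100 to 200 kb in 2 of 7 (0.19), from 200 to 300 kb in 8 of 10 (−0.23) and from 300 to 400 kb in 2 of 7 (0.28). From 400 to 500 kb it was below WT in 1 of 2 (0.16). The counting intervals of 41 of the 42 shared regions held 1. The summed pileup of the 10 regions from 200 to 300 kb was 297 tags in WT and 251 in mutant, and that of the 7 from 300 to 400 kb was 185 and 233. These stretches were drawn after the values were seen, neighbouring regions are not independent, and no test was made of them.

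Region by region, the stretch from 200 to 300 kb began with a short intron 11 region at 282 kb (12 tags in WT, none called in het, 12 in mutant), followed towards the promoter by the tallest Reln region at 251 kb and a companion in the same intron at 249 kb (35 tags in WT, 42 in het, 26 in mutant). Intron 8 held a pair at 226 and 225 kb, the first with 41 WT, 41 het and 32 mutant tags, the second being the lower region above. A further intron 8 region at 217 kb had 23 WT, 20 het and 16 mutant tags. These 3 intron 8 regions were all shorter in mutant than in WT. In intron 7 the region at 216 kb had 20 WT, 19 het and 20 mutant tags, and the one at 213 kb had 32, 25 and 23. Exon 7 at 210.1 kb had 20, 29 and 22 tags, and the intron 6 region at 206 kb had 12 in WT, none called in het and 13 in mutant. Tall and short regions thus stood side by side, with ratios from 0.639 to 1.09.

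Towards the promoter, introns 1 and 2 each held more regions than any other intron of the gene. Besides those above, the intron 2 regions at 96.8 kb (36 tags in WT, 46 in het, 47 in mutant) and 77.5 kb (41, 46 and 35) were among the tallest of the gene, and they differed in opposite directions, with ratios of 1.29 and 0.843. In intron 1 the regions nearest the promoter, at 13.8 and 18.4 kb, had 24 and 19 tags in WT, 23 and 21 in het and 23 and 15 in mutant. Every region of the first 100 kb that had a WT peak also had a mutant peak.

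In the middle and 3′ part of the gene, intron 5 at 191 kb (39 tags in WT, 55 in het, 49 in mutant; ratio 1.24) was the other tall region. Exon 22 at 327 kb had 26, 27 and 32 tags, and intron 46 at 411 kb had 28, 50 and 27. Beyond the 3′ end, the region upstream of the Slc26a5 start (chr5:21866210-21866696) had 36 tags in WT, 46 in het and 48 in mutant, a ratio of 1.32 (interval 0.837 to 2.09). This region belongs as much to Slc26a5 as to Reln.

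Some Reln peaks had no counterpart in another list. Of the 55 WT peaks, 11 (20%, Wilson interval 11.6% to 32.4%) had no mutant peak that overlapped them, against 22.8% of all WT peaks. Of the 51 mutant peaks, 6 (11.8%, interval 5.51% to 23.4%) lacked a WT peak, against 30.7% of all mutant peaks, and here the interval lies under the share of the whole list. At the 35 further pathway genes followed below the interval also lay under that share (23.5%, interval 19.4% to 28.1%). At Vldlr, Lrp8, Dab1 and Fyn together it held that share (27.3%, interval 21.2% to 34.3%). A low share was therefore not particular to Reln. A het peak was missing at 16 of the WT peaks (36.9% over the whole WT list) and at 11 of the mutant peaks (41.3% over the whole mutant list). The het list was the shallowest.

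The unshared Reln peaks were weak. Their median −log10 q was 2.94 in WT and 4.58 in mutant, against 11.7 and 10.7 for shared Reln peaks. The same held over the whole lists, with medians of 3.3 in WT and 3.8 in mutant for unshared peaks, against 9.2 and 10.5 for shared peaks. Of the 39 WT peaks with a −log10 q of at least 5, 4 lacked a mutant peak (5.78% of all such WT peaks), and of the 45 such mutant peaks 3 lacked a WT peak (11.2% of all such mutant peaks). At the level of joined regions, 9 had a WT and no mutant peak and 3 a mutant and no WT peak, and 1 had a het peak alone.

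The strongest region without a mutant peak stood at the Slc26a5 start (chr5:21865473-21865768), with 18 tags in WT and a −log10 q of 8.57, and no peak in het or mutant. Inside the gene it was the intron 2 region at 110.7 kb (chr5:22233816-22234015), with 13 tags in WT and a −log10 q of 6.24. The strongest region without a WT peak was in intron 20 at 321 kb (chr5:22023735-22023853), with 12 tags in mutant and a −log10 q of 5.04. Of the 9 regions without a mutant peak, 5 lay between 100 and 200 kb, and 1 of the 9 had a het peak, the exon 60 region at 443 kb (9 tags in WT, 14 in het). A region absent from a list was below the caller's threshold there, which is not the same as closed.

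**Figure D3:**
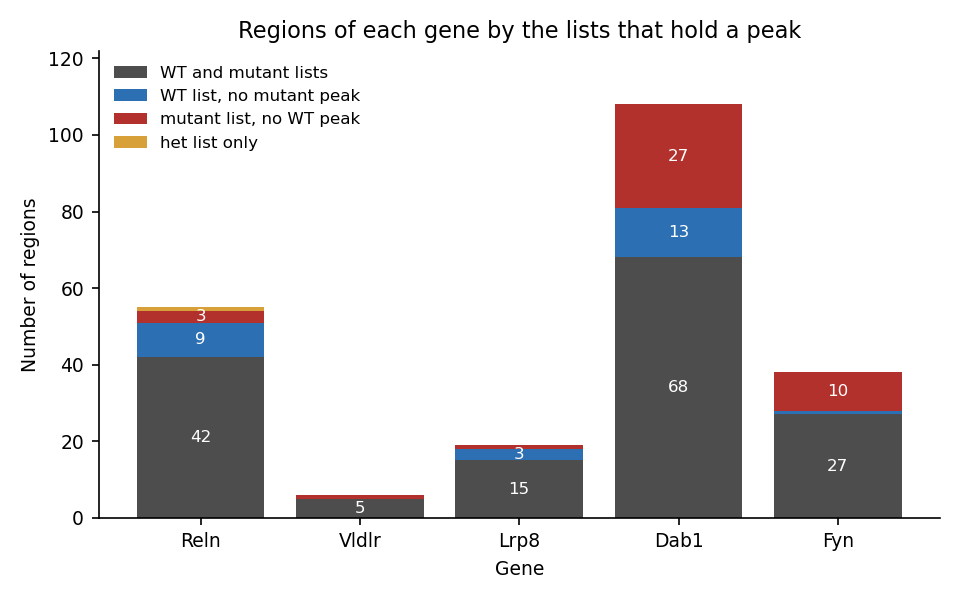
Number of regions at each of the 5 genes by the lists that hold a peak. Reln had 9 regions in WT without a mutant peak and 3 the other way, whereas Dab1 had 13 and 27 and Fyn 1 and 10.

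Over the 4 genes that receive the signal mutant peaks outnumbered WT peaks, as they did in the whole lists, with Lrp8 as the exception. At Vldlr, Lrp8, Dab1 and Fyn together, 171 regions held 143 WT, 107 het and 176 mutant peaks. Of these WT peaks 18 lacked a mutant peak (12.6%, interval 8.11% to 19.0%, against 22.8%), and of these mutant peaks 48 lacked a WT peak (27.3%, interval 21.2% to 34.3%, against 30.7%). The median log2 ratio of their 115 shared regions was 0.13 (interval 0.075 to 0.17), against 0.074 for all regions, so the lower limit all but meets that median. Of the 115 ratios 46 lay below the median of all shared regions. The mutant height was below WT in 33 of the 115 (28.7%, interval 21.2% to 37.5%, against 42.8%), whereas at Reln it was 52.4%. By the 1.5-fold rule 3 were lower and 9 higher, against 3.61% and 7.48% of all shared regions, and the counts lie near those shares. The difference between Reln and these genes has no test, because the regions of a gene are not replicates of a genotype.

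**Figure D4:**
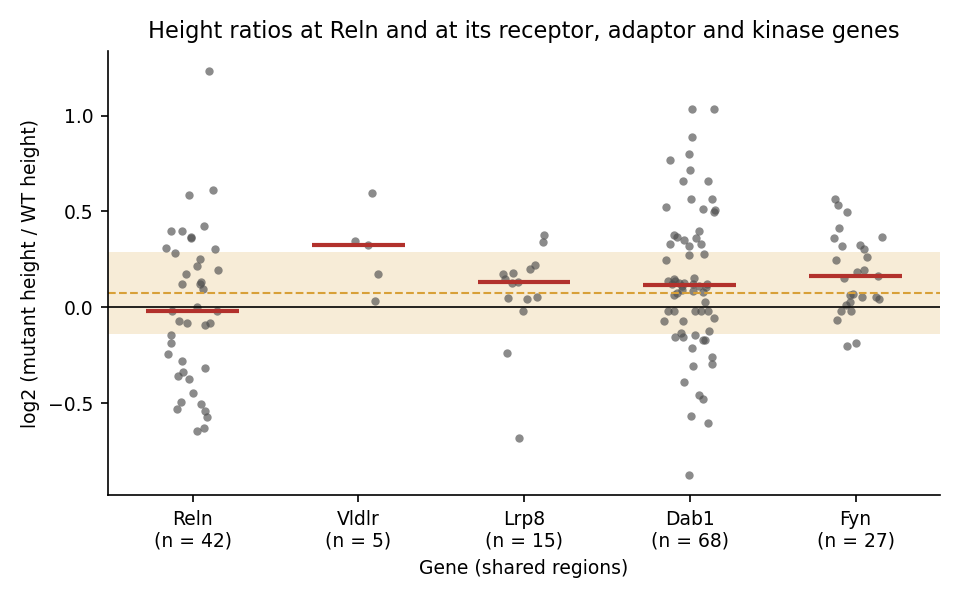
Log2 of the mutant to WT height ratio of each shared region at the 5 genes (points, spread sideways for view), with the median of each gene as a red bar. The dashed line and the band are the median and the middle 50% of all shared regions; the Reln median of −0.02 lies below that line and those of the other genes, from 0.12 to 0.32, above it.

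The Vldlr gene (chr19:27216484-27254231) had 6 regions, with 5 WT, 5 het and 6 mutant peaks. Its promoter (chr19:27216616-27218325) was its tallest region, with 58 tags in WT, 81 in het and 60 in mutant, a ratio of 1.02 (interval 0.7001 to 1.49). All 5 shared regions were taller in mutant than in WT, with log2 ratios from 0.03 to 0.60, against 63623 of all 111314 shared regions. Of the 5, 1 lay below the median of all shared regions. The largest was in intron 1, 9.99 kb from the start (chr19:27227163-27227541), with 15 tags in WT, 20 in het and 23 in mutant, a ratio of 1.51 (interval 0.757 to 3.12). A further intron 1 region was called in mutant alone, with 19 tags.

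At Lrp8 (chr4:107802261-107876840) there were 19 regions, with 19 WT, 14 het and 18 mutant peaks. The promoter (chr4:107801436-107802580) had 32 tags in WT, 46 in het and 41 in mutant, a ratio of 1.27 (interval 0.778 to 2.08). The tallest region inside the gene was in intron 2 (chr4:107820849-107821683), with 58 WT, 89 het and 65 mutant tags, and intron 12 held one of 49, 70 and 57 tags. The tallest of the window, with 64 WT, 93 het and 55 mutant tags, stood at the start of the neighbour 0610037L13Rik and not in Lrp8. The lowest ratio was 0.624 in intron 6 (19 tags in WT, 21 in het, 12 in mutant; interval 0.276 to 1.35). Of 15 shared Lrp8 regions 12 were taller in mutant, against 63623 of all 111314 shared regions, and 6 of the 15 lay below the median of all. None was higher by 1.5-fold (7.48% of all), and the intron 6 region was the 1 lower by that much (3.61% of all).

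Dab1 (chr4:103619359-104744844) was the largest of the 5 genes, at 1126 kb, and held 108 regions, with 86 WT, 60 het and 106 mutant peaks. Both of its open coding promoters had a peak in every list. The principal one (chr4:104366913-104368400) had 31 tags in WT, 47 in het and 40 in mutant, a ratio of 1.27 (interval 0.777 to 2.11), and the one 748 kb upstream had 14, 18 and 15. The tallest regions lay far upstream of the principal start, inside longer transcripts. The tallest of all (chr4:103922162-103923175) had 77 WT, 133 het and 75 mutant tags.

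The Dab1 ratios ran from −0.88 to 1.04 on the log2 scale over 68 shared regions. Of these 2 were lower by 1.5-fold or more and 8 higher (3.61% and 7.48% of all shared regions). The lowest (chr4:103888037-103888643) had 29 tags in WT, 23 in het and 16 in mutant, a ratio of 0.545 (interval 0.276 to 1.04). The highest were a pair with the same pileups in WT and mutant, 13 and 27 tags (chr4:103712940-103713332, with 14 tags in het, and chr4:104283690-104284223, with 26), a ratio of 2.05 (interval 1.02 to 4.33). Of its 106 mutant peaks 33 lacked a WT peak (31.1%, interval 23.1% to 40.5%), close to the 30.7% of the whole list, and a mutant peak was missing at 14 of its 86 WT peaks (16.3%, interval 9.95% to 25.5%, against 22.8% of all WT peaks). The strongest region in mutant alone (chr4:104337379-104337755) had 18 tags and a −log10 q of 10.8.

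At Fyn (chr10:39368855-39565381) 38 regions held 33 WT, 28 het and 46 mutant peaks. The Fyn promoter (chr10:39369330-39371081) was the tallest of all the regions followed here, with 97 tags in WT, 167 in het and 99 in mutant, a ratio of 1.01 (interval 0.754 to 1.35). No shared Fyn region passed 1.5-fold (3.61% lower and 7.48% higher over all shared regions). Taller in mutant were 22 of 27, against 63623 of all 111314 shared regions, and 12 of the 27 ratios lay below the median of all shared regions. The largest ratio was 1.48 in intron 2 (chr10:39421295-39422364; 22 tags in WT, 40 in het, 33 in mutant; interval 0.838 to 2.67), and the lowest was 0.869 in intron 3. A mutant peak was missing at 1 of the 33 WT peaks (3.03%, interval 0.537% to 15.3%, against 22.8% of all WT peaks), and a WT peak at 12 of the 46 mutant peaks (26.1%, interval 15.6% to 40.3%, against 30.7% of all mutant peaks). Of the 10 Fyn regions with a mutant and no WT peak, 2 also had a het peak.

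No principal promoter differed by more than its counting error. The ratios of the principal promoters were 1.09 at Reln, 1.02 at Vldlr, 1.27 at Lrp8, 1.27 at Dab1 and 1.01 at Fyn, against a median ratio of 1.05 over all shared regions, and the counting interval of each held 1.

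The rest of the pathway was followed through 35 genes of the kinases, adaptors, cytoskeletal targets, proteases and degradation factors of Reelin signalling. They held 345 regions, 235 of them shared, with a median log2 ratio of 0.07 (interval 0.01 to 0.11). By the 1.5-fold rule 5 were lower and 9 higher, against 3.61% and 7.48% of all shared regions. The mutant height was below WT in 101 (43.0%, against 42.8%). Of 310 WT peaks 50 lacked a mutant peak (16.1%, interval 12.5% to 20.6%, against 22.8% of all WT peaks). Of 358 mutant peaks 84 lacked a WT peak (23.5%, interval 19.4% to 28.1%, against 30.7% of all mutant peaks). Both intervals lie under the shares of the whole lists.

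Among strong regions, those with a −log10 q of at least 10 in WT or mutant, lower ones stood in Pafah1b2, a partner of Lis1 (22 tags in WT, none called in het, 13 in mutant), and in Cdh2, which encodes N-cadherin (21, 17 and 12). Of the 141 strong shared regions at these genes 7 were higher, whereas 8.64% of all strong shared regions were higher and 3.85% lower. The 7 stood at Pik3r1 (2 regions), Nck2, Pafah1b1 (the Lis1 gene), Dcx (doublecortin), Cdh2 and Dab2ip, and naming them makes no claim for the pathway. The Dcx region had 25 tags in WT, 46 in het and 41 in mutant (ratio 1.62, interval 0.962 to 2.78), and the Dab2ip region 11, 16 and 23 (ratio 2.06, interval 0.967 to 4.69).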

How the data were processed

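ATAC-seq had been run on 8 GNP libraries, and only the 3 peak lists were used. Per the study's methods, reads were trimmed with Trim Galore 0.4.1 and aligned to mm10 with Bowtie 1.0.0, duplicates were removed with Picard 1.139, and the authors called peaks with MACS2 2.1.0.20150731 after shifting and extending the tags. Per the file headers this holds for the het list, whereas the WT and mutant lists came from STAR alignments (2.5.0b in the submitters' processing notes) without a shift. Counts per replicate, which the study tested, were not analysed here. The study names Reln among the genes at which it found decreased ATAC-seq peaks on loss of Chd7. The pooled lists have no replicate error and cannot test that finding. The study also reports reduced Reln RNA in Chd7 mutant GNPs and binding of Chd7 at Reln, neither of which was examined here.

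The deposited pileup is a signal, the stacked tags at a summit. The deposited fold enrichment is a ratio to the local background, and the deposited −log10 q is the caller's significance. From these were computed overlaps of at least 1 bp, joined regions (300 bp), heights per 10000000 tags, exact binomial intervals for height ratios, Wilson intervals for shares and order-statistic intervals for medians (95% each; Python 3.11.15, numpy 2.4.6, pandas 2.3.3, scipy 1.17.1, samtools 1.23.1). Genes came from GENCODE M21 and a promoter was a summit within 1 kb of a coding start. Scripts were tested on simulated lists.

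The members and lists were chosen with earlier results of these data known. The regions named at Reln were the promoter, the 10 tallest, those past 1.5-fold with a −log10 q of at least 10 and the unshared ones with a −log10 q of at least 5. At the other genes they were the promoter, the 3 tallest and up to 3 of the largest differences in each direction. Further Reln regions were named after their values were seen. One result at a gene of the wider pathway list is not reported here. Other overlap rules, q limits, windows, scalings and height measures were tried.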

Additional observations from a re-analysis of the deposited data

How the results depend on the processing

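Of 50 alternative values, 36 stayed within the interval or 1.5 times of the reported one. With a −log10 q of at least 5 on the peak asked about, the unshared share was 10.3% for Reln WT peaks, 5.15% for receptor and adaptor WT peaks and 13.8% for their mutant peaks. Over all such peaks it was 5.78% in the WT list and 11.2% in the mutant list. With 50% reciprocal overlap the receptor and adaptor shares were 28.0% (WT) and 41.5% (mutant). With heights scaled to a median ratio of 1 over all shared regions, the receptor and adaptor median log2 ratio was 0.054. Of the 42 shared Reln regions 5 were then lower and 1 higher, against 5.10% and 5.48% of all shared regions. The lower count lay above its share and the higher count below. With the fold enrichment Reln had 0 lower, against 1.92% of all shared regions. With a 2-fold rule Reln had 0 lower and 1 higher, and the receptor and adaptor genes 0 and 2. The matching shares over all peaks or regions were not computed for the 50% and 2-fold rules, so those values cannot be set against the whole lists. Among regions with a −log10 q of at least 10 the receptor and adaptor genes had 1 of 63 lower, against 3.85% of all such regions. The cause of these differences was not tested. The stricter limits leave fewer peaks or regions by construction, which does not by itself lower a share.

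No paired analysis was possible because each list pools the libraries of a genotype, and for the same reason no replicate was left out. The counting interval held 1 at 41 of 42 shared Reln regions and at 113 of 115 at the receptor and adaptor genes.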
